A study of Mus musculus with 7 samples.

Results

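The histone genes of the mouse erythroid cell line G1E were examined with and without the long noncoding RNA gene Lockd. A gene was taken as a member when at least 1 probeset of the array carried its symbol alone and the symbol was that of a histone H1, H2A, H2B, H3, H4 or macroH2A gene. This gave 50 of the 22180 genes measured, and 48 of the 50 had 1 such probeset while H2ac21 and H2ab1 had 2, of which the probeset with the higher mean over all arrays was used. The 50 genes were divided by symbol into 24 replication-dependent genes, 8 variant genes and 18 germline and other genes.

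G1E is an immortal line of early erythroid cells that was derived from mouse embryonic stem cells without the transcription factor GATA1, so both groups lacked GATA1. The control group held 3 arrays of G1E cells with wild-type Lockd, and the deletion group held 4 arrays of G1E cells from which Lockd had been removed with CRISPR/Cas9. The series calls the samples clones, but the labels do not tie an array to a clone or say whether the replicates were separate cultures. The tests therefore rest on the spread from array to array, part of which may be technical. Both groups were grown in the same G1E medium, and no treatment other than the deletion is given.

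Replication-dependent histone genes lie in clusters and supply the bulk of core and linker histones during S phase, when the DNA is copied. Their mRNAs end in a stem-loop bound by the protein SLBP in place of a poly(A) tail, so their amount follows DNA synthesis. Variant histone genes stand alone, are transcribed through the cell cycle, and their products replace the bulk histones at particular sites. The array measured total RNA labelled with a whole-transcript kit. The labels do not give the primer, so it is not known whether mRNAs without a poly(A) tail were copied as well as others.

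The 24 replication-dependent genes were 4 linker genes (H1f1, H1f2, H1f3 and H1f5), 6 H2A genes, 7 H2B genes and 7 H4 genes. By the RefSeq gene table of GRCm38.p6, 18 of them lie on chromosome 13, 5 on chromosome 3 and 1, H2aw, on chromosome 11. The 8 variant genes were H1f10, H2aj, H2ax, H2az1, H2az2, Macroh2a1, Macroh2a2 and Macroh2a3, the last annotated as a transcribed pseudogene. No H3 gene was a member, because all 15 H3 symbols on the array shared probesets with other symbols. H1f4, H3f3a and H3f3b were also present only on shared probesets, and H1f0 had no listed probeset.

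The start regions of both main classes were searched for short elements known from histone promoters, and some are shown because these classes are the ones compared. RefSeq windows of 300 bases (250 before and 50 after the gene start) were available for 22 replication-dependent and 6 variant genes. The variant genes H2ax and Macroh2a3 and the replication-dependent genes H2bc21 and H4c14 had no window, so the counts do not cover them. The following 5 windows, printed 5′ to 3′ along the gene, are those of 3 genes with high values and of the 2 genes with an unadjusted p under 0.05, and they were chosen after their values were seen. Capitals mark the octamer ATTTGCAT, the CCAAT box and the letters TATAAA of the TATA element. Matches on either strand and at any position were marked, and none of them overlap.
H2bc3 (chr13:23746484-23746783, plus strand): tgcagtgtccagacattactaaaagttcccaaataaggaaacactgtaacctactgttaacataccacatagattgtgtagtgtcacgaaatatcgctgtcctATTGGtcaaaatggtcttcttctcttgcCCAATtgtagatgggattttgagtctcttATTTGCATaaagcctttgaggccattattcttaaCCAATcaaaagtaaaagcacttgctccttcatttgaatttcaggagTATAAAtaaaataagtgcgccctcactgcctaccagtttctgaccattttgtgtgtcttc
H2bc12 (chr13:22035571-22035870, plus strand): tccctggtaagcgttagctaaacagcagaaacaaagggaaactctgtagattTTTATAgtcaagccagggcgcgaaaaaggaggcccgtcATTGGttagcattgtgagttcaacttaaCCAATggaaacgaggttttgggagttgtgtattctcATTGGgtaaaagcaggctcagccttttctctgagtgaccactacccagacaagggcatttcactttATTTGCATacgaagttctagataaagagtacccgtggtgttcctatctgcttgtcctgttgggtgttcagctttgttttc
H2bc22 (chr13:21787238-21787537, plus strand): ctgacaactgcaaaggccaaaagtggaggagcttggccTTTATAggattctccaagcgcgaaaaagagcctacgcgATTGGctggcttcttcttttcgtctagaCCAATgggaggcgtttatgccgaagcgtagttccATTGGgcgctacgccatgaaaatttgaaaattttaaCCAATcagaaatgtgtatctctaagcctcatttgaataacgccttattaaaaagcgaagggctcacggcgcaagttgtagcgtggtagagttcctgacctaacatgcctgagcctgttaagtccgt
H4c12 (chr13:21750504-21750803, minus strand): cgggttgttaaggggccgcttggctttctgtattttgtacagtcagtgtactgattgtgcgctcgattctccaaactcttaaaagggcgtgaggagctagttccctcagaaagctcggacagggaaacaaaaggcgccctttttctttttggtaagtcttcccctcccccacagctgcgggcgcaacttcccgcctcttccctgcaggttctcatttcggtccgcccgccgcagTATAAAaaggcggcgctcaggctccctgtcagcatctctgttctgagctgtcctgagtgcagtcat
H2aj (chr6:136807998-136808297, plus strand): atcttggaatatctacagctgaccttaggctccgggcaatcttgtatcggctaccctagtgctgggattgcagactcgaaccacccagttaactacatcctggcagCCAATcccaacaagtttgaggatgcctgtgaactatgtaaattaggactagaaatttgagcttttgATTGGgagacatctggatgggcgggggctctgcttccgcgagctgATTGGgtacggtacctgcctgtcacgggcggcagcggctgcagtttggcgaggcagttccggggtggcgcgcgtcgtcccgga

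H2bc3 and H2bc12, which encode H2B, each held 1 octamer, 3 CCAAT boxes and 1 TATAAA match. H2bc22, another H2B gene, held 4 CCAAT boxes and 1 TATAAA match but no octamer. H4c12, an H4 gene, held 1 TATAAA match only, and the window of the variant gene H2aj held 3 CCAAT boxes. The matches of H2bc3 and H4c12 read TATAAA along the gene and lay shortly before the gene start. Those of H2bc12 and H2bc22 read TTTATA, on the opposite strand, and lay farther upstream than every CCAAT box of their windows. They were therefore not placed alike. A match is a string of letters and was not tested as a binding site.

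The octamer occurred in 7 of 22 replication-dependent windows (31.8%), against 1.74% of all 32851 windows in the table. It was found in 3 of 6 H2A and 4 of 6 H2B windows, in none of the 4 H1 or 6 H4 windows, and in 0 of 6 variant windows. TATAAA occurred in 14 of 22 replication-dependent windows (63.6%) and 0 of 6 variant windows, against 13.6% of all windows. These counts take either strand and any position in the window. CCAAT occurred in 17 of 22 replication-dependent windows (77.3%) and 4 of 6 variant windows (66.7%), against 37.4% of all windows. Among the replication-dependent families, CCAAT was in every H1, H2A and H2B window and in 1 of 6 H4 windows.

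The values are log2 expression values, so a difference of 1 is a factor of 2 between groups. The 7 arrays correlated at 0.993 to 0.996 over the 23521 probesets with exactly 1 symbol. Lockd read 7.89, 8.04 and 7.80 on control arrays 1 to 3 and 5.09, 5.15, 4.17 and 5.15 on deletion arrays 1 to 4, a difference of -3.02 (SE 0.23, adjusted p = 0.0162). Its neighbour Cdkn1b, the gene of the cell cycle inhibitor p27, differed by -1.14 (SE 0.10, adjusted p = 0.0251). These were the only 2 of 22180 genes (0.00902%) with a Benjamini-Hochberg adjusted p under 0.05 in the limma fit across the table, and none passed when control array 1, 2 or 3 or deletion array 1 or 4 was left out. All 11 erythroid precursor markers lay above the median gene, and their mean level was 10.92 to 10.99 in both groups. The mast cell list (6 of 6 measured, 3 above the median gene) had mean levels of 6.44 to 7.35 in control and 6.26 to 6.85 in deletion arrays, and by gene its differences were -2.03 for Tph1, -0.70 for Cpa3, -0.39 for Gzmb, -0.02 for Mcpt8, 0.06 for Fcer1a and 0.10 for Ms4a2. Mean levels of the megakaryocyte, myeloid, lymphoid and stromal lists ranged over both groups from 6.34 to 6.66, 4.93 to 5.15, 3.97 to 4.10 and 5.28 to 5.67. The part of these markers in the histone values was not tested.

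No histone gene passed the adjusted threshold, and the lowest adjusted p of any of the 50 was 0.999. Deletion was lower than control for 22 and higher for 28 histone genes, with a median difference of 0.013 and a range of -0.28 to 0.24. Over all genes 47.8% were lower and 52.2% higher, and the median difference was 0.005. The difference was at an unadjusted p under 0.05 for 2 of the 50 histone genes, against 4.61% of all genes (1022 of 22180). Control and deletion values did not overlap for 3 of the 50, against 5.19% of all genes. Of these, 1 was lower in deletion arrays and 2 were higher, against 2.54% and 2.65% of all genes. Both counts of histone genes are of the size of the background. The count at an unadjusted p under 0.05 was 1 without deletion array 1, 6 without deletion array 3 and 4 without each of deletion array 4, control array 1 and control array 3. The precision was similar to that of the other genes, with a median SE of 0.11 for histone genes of the replication-dependent class and 0.09 for all genes.

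**Figure D1:**
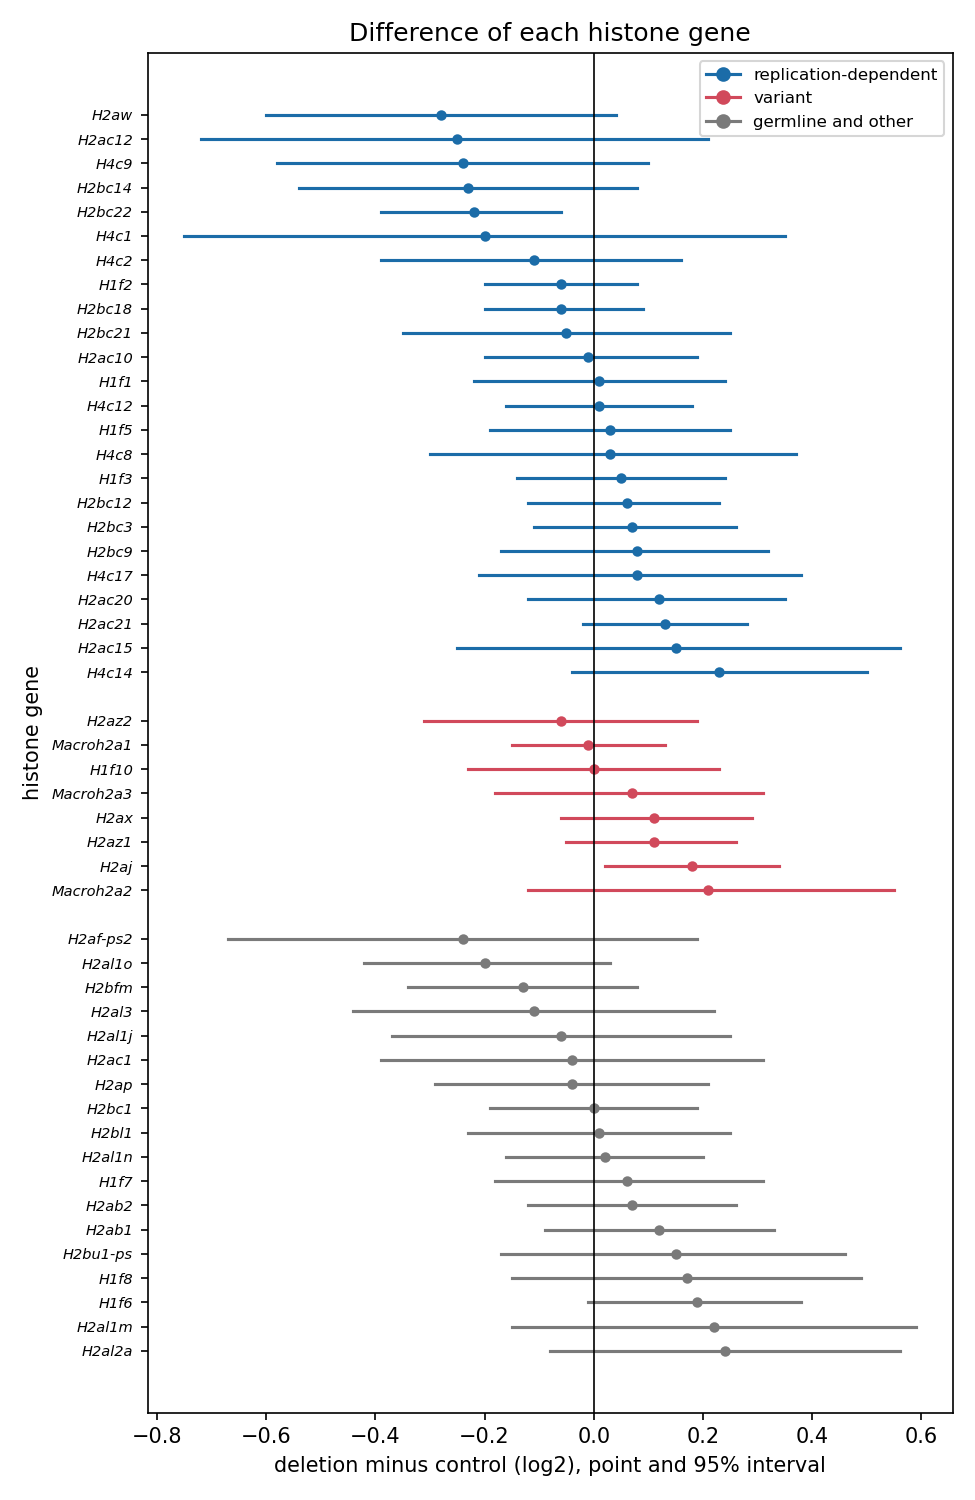
Difference of each of the 50 histone genes between deletion and control (horizontal axis, deletion minus control on the log2 scale, point and 95% interval from limma) with 3 control and 4 deletion arrays, coloured by class. All points lie between -0.28 and 0.24, and the intervals of H2bc22 and H2aj are the ones that leave out 0.

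Linker histones bind the DNA between nucleosomes and compact the fibre. H1f1 read 5.98, 6.33 and 6.12 on the control arrays and 6.28, 6.16, 6.17 and 5.99 on the deletion arrays. H1f2 read 10.02, 10.11 and 10.12 on the control arrays and 9.99, 10.02, 10.02 and 10.07 on the deletion arrays. In both genes the groups overlapped, and the differences were 0.01 (SE 0.10) and -0.06 (SE 0.06). H1f3 read 8.03, 8.03 and 7.87 in control and 7.96, 7.91, 8.17 and 8.07 in deletion arrays, a difference of 0.05 (SE 0.08). H1f5 read 11.09, 11.36 and 11.30 in control and 11.41, 11.13, 11.35 and 11.24 in deletion arrays, a difference of 0.03 (SE 0.10). The groups overlapped in all 4 linker genes. The 95% interval of the H1f2 difference ran from -0.20 to 0.08, the narrowest of the 4. The median difference of the 4 was 0.020, and the sign of H1f1, H1f3 and H1f5 depended on which single array was left out.

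Among the core histones, H2A and H2B form the outer dimers of the nucleosome. H2bc22 read 4.51, 4.50 and 4.49 on the control arrays and 4.41, 4.30, 4.19 and 4.20 on the deletion arrays. All 4 deletion values lay below all 3 control values, and the control values spanned less than the deletion values. The difference was -0.22 (SE 0.07, limma adjusted p = 0.999), or -14.4% (95% interval -23.8% to -3.91%). It was the only replication-dependent gene at an unadjusted p under 0.05, and 2.37% of all genes were lower at that p. The gene's mean of 4.37 lay at percentile 22.3 of the gene means, and the values carry no detection call.

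H2ac21, an H2A gene of the cluster on chromosome 3, read 10.24, 10.24 and 10.19 on the control arrays and 10.42, 10.27, 10.33 and 10.40 on the deletion arrays. Here all deletion values lay above all control values, by 0.13 in the mean (SE 0.07, 95% interval -0.02 to 0.28). Its other probeset read 5.33, 5.46 and 5.61 against 5.25, 5.46, 5.44 and 5.44, overlapped between groups and gave -0.07 (SE 0.09), so the probesets of H2ac21 differed in sign. H2aw, an H2A gene apart from the large clusters, read 6.86, 6.46 and 6.40 in control and 6.37, 6.47, 6.02 and 6.32 in deletion arrays. Its groups overlapped, and the difference of -0.28 (SE 0.14, 95% interval -0.60 to 0.04), the lowest of the 50, was -0.14 without control array 1.

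Within the replication-dependent class, the widest spread over the 7 arrays belonged to H4c1 and H2ac12. H4c1, which encodes H4, read 5.25, 5.79 and 5.08 on the control arrays and 4.61, 5.14, 5.55 and 5.40 on the deletion arrays, a range of 1.18. H2ac12, an H2A gene, read 3.47, 3.27 and 3.21 on the control arrays and 2.78, 2.93, 3.68 and 2.86 on the deletion arrays, a range of 0.90. In both genes the groups overlapped, and in H2ac12 the highest and the lowest value were both deletion arrays. The differences were -0.20 (SE 0.24) for H4c1, which was 0.010 without control array 2, and -0.25 (SE 0.20) for H2ac12, which was -0.46 without deletion array 3.

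Some members with high values had small differences. H4c12 read 13.08, 13.16 and 12.91 on the control arrays and 13.06, 13.06, 13.07 and 13.05 on the deletion arrays, a difference of 0.01 (SE 0.07, 95% interval -0.16 to 0.18). H2ac10, an H2A gene, read 12.67, 12.61 and 12.77 against 12.83, 12.53, 12.66 and 12.68, a difference of -0.01 (SE 0.09, 95% interval -0.20 to 0.19). H2bc12 read 11.22, 11.36 and 11.45 against 11.48, 11.33, 11.40 and 11.38, and H2bc3 read 10.16, 10.32 and 10.39 against 10.48, 10.31, 10.29 and 10.38. The deletion values of these 4 genes lay within or beside the control values, and the differences of H2bc12 and H2bc3 were 0.06 (SE 0.08) and 0.07 (SE 0.08). These 4 genes were chosen after their values were seen.

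By family, the replication-dependent medians were 0.020 for the 4 H1 genes, 0.054 for 6 H2A genes, -0.049 for 7 H2B genes and 0.008 for 7 H4 genes. The lowest and highest members of the H2B family were H2bc14 at -0.23 (SE 0.14) and the pseudogene H2bu1-ps, of the germline and other class, at 0.15 (SE 0.14). In the H4 family they were H4c9 at -0.24 (SE 0.15) and H4c14 at 0.23 (SE 0.12). Every one of these 4 genes overlapped between groups. The 16 replication-dependent genes above the median gene mean of 5.72 had a median difference of 0.033 and ran from -0.28 to 0.13, with 5 lower and 11 higher. The 8 below it had a median of -0.155, ran from -0.25 to 0.23, and 6 were lower. By chromosome, the median was 0.009 for the 18 genes on chromosome 13 and 0.118 for the 5 genes on chromosome 3.

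Of the 8 variant genes 3 were lower and 5 higher, with a median of 0.086 and a range of -0.06 to 0.21. H2aj encodes H2A.J, a variant that accumulates in senescent human fibroblasts with lasting DNA damage. It read 7.31, 7.16 and 7.27 on the control arrays and 7.49, 7.47, 7.37 and 7.37 on the deletion arrays. All deletion values lay above all control values. The difference was 0.18 (SE 0.07, limma adjusted p = 0.999), or 13% (95% interval 1.18% to 26.2%), and 2.24% of all genes were higher at that p. Over the arrays left out and the centring, the unadjusted p was above 0.05 with arrays centred on their median (0.15) and without control array 2 (0.13), control array 3 (0.19), deletion array 1 (0.16) or deletion array 2 (0.16), where the values in parentheses are the differences. H2aj lies on chromosome 6, as does Lockd, with 16 other protein-coding genes between them in the RefSeq table.

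H2ax encodes the H2A form that is phosphorylated at DNA double-strand breaks, and its transcripts can end in a stem-loop or in a poly(A) tail. It read 11.52, 11.73 and 11.76 on the control arrays and 11.76, 11.81, 11.75 and 11.83 on the deletion arrays, a difference of 0.11 (SE 0.08). Its groups overlapped, since control array 3 tied with deletion array 1 and exceeded deletion array 3, and the difference was 0.040 without control array 1. H2az1 and H2az2 encode the forms of H2A.Z, a variant placed beside the start sites of active genes. H2az1 read 7.55, 7.45 and 7.45 in control and 7.61, 7.64, 7.60 and 7.49 in deletion arrays, a difference of 0.11 (SE 0.07). H2az2 read 9.15, 9.40 and 9.59 in control and 9.37, 9.20, 9.30 and 9.43 in deletion arrays, a difference of -0.06 (SE 0.11). The H2A.Z genes thus had differences of opposite sign with 95% intervals that include 0, and that of H2az2 was 0.050 without control array 3.

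MacroH2A histones carry a large extra domain and are abundant on the inactive X chromosome. Macroh2a1 read 11.40, 11.41 and 11.36 on the control arrays and 11.38, 11.44, 11.32 and 11.35 on the deletion arrays, a range of 0.11 and the smallest of the 8 variants. Its difference was -0.01 (SE 0.06, 95% interval -0.15 to 0.13). Macroh2a2 read 4.75, 4.69 and 4.70 on the control arrays and 5.22, 4.76, 5.13 and 4.59 on the deletion arrays. Deletion arrays 1 and 3 were high and deletion array 4 was below every control, and the difference was 0.21 (SE 0.15, 95% interval -0.12 to 0.55). It was 0.12 without deletion array 1 and 0.32 without deletion array 4, where the unadjusted p was under 0.05. Macroh2a3 read 6.70, 6.39 and 6.29 in control and 6.61, 6.62, 6.45 and 6.41 in deletion arrays, a difference of 0.07 (SE 0.11). H1f10, a linker variant, read 5.55, 5.46 and 5.83 in control and 5.57, 5.55, 5.59 and 5.74 in deletion arrays. Both groups of H1f10 had a mean of 5.61, and the 95% interval of the difference ran from -0.23 to 0.23.

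**Figure D2:**
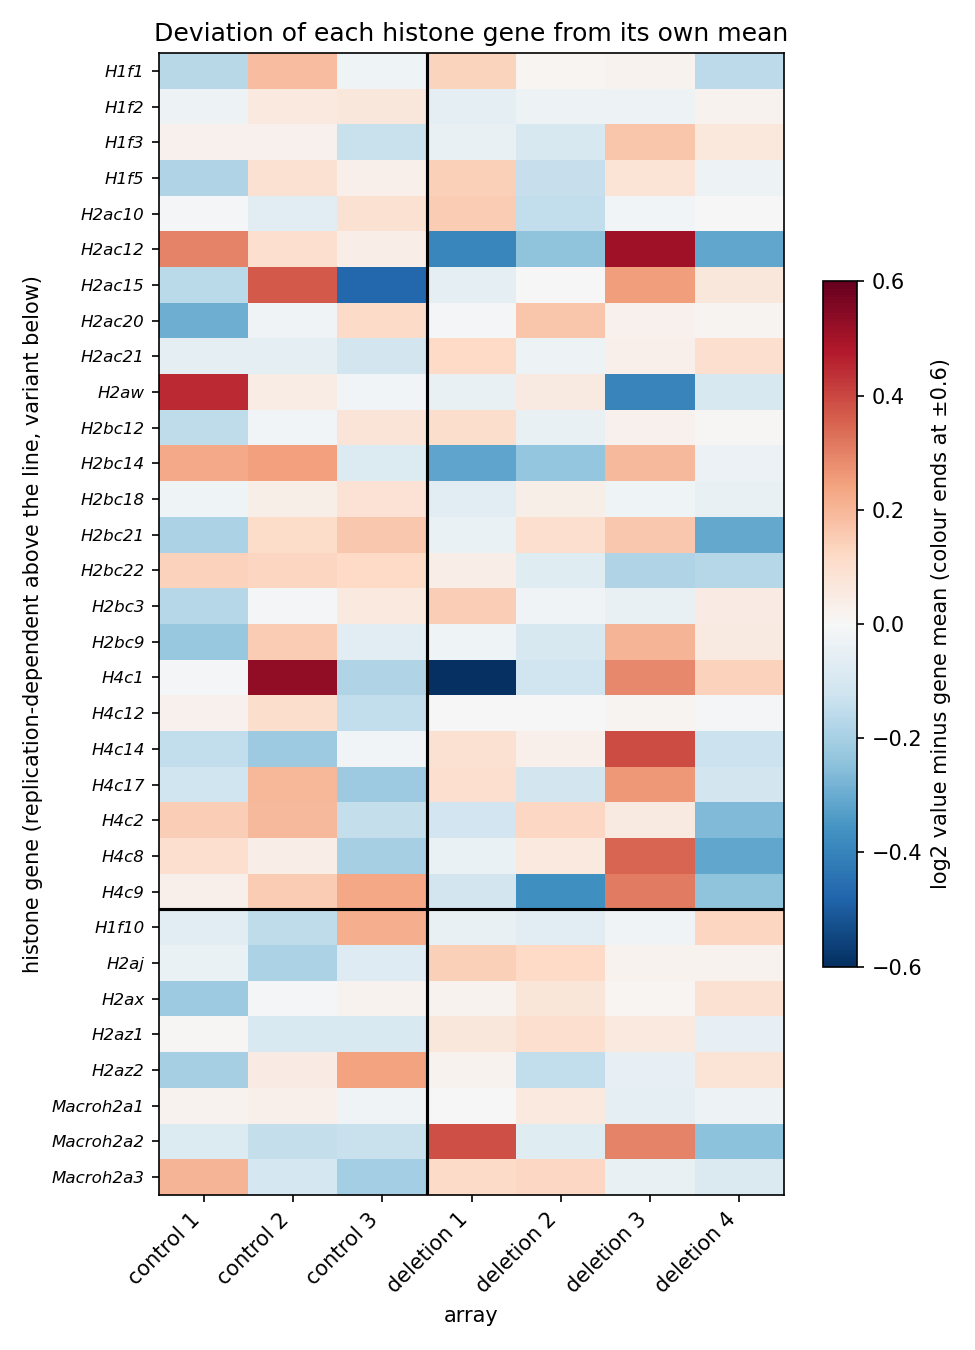
Deviation of the 24 replication-dependent (above the line) and 8 variant histone genes from their own mean over 7 arrays, in log2 units, with red for above and blue for below the mean. Control array 2 and deletion array 3 are above the mean for 18 of the 24 replication-dependent genes each.

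To compare the classes array by array, each gene was set against its own mean over the 7 arrays and the median of these deviations was taken in each class. For the replication-dependent genes the medians were -0.027, 0.096 and -0.017 on control arrays 1 to 3 and -0.032, -0.027, 0.070 and -0.033 on deletion arrays 1 to 4. Control array 2 and deletion array 3 stood above the other 5 arrays, 1 in each group, and the group means of 0.017 ± 0.069 (SD, n = 3) and -0.005 ± 0.050 (SD, n = 4) differed by less than their spread. For the variant genes the medians were -0.051, -0.100 and -0.050 on the control arrays and 0.042, 0.065, -0.006 and -0.002 on the deletion arrays. All deletion medians of the variant genes lay above all control medians, with group means of -0.067 ± 0.028 and 0.025 ± 0.035. A median over chosen genes was given no p-value.

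Replication-dependent minus variant medians were 0.024, 0.196 and 0.033 on the control arrays and -0.074, -0.093, 0.076 and -0.031 on the deletion arrays. The groups overlapped through deletion array 3, which exceeded control arrays 1 and 3, and the group means were 0.084 ± 0.097 and -0.031 ± 0.075. On the scale of gene differences, the replication-dependent median of 0.009 minus the variant median of 0.086 was -0.077. This was 0.003 without control array 2, -0.122 without control array 1, and -0.047 without deletion array 2. The order of the classes therefore rested on control array 2, and other arrays left out gave -0.115 to -0.060. The replication-dependent median alone changed sign between settings, at -0.033 without control array 1, -0.017 without control array 3, -0.012 without deletion array 1 and -0.001 without deletion array 3, and was 0.063 without control array 2 and 0.041 without deletion array 4.

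**Figure D3:**
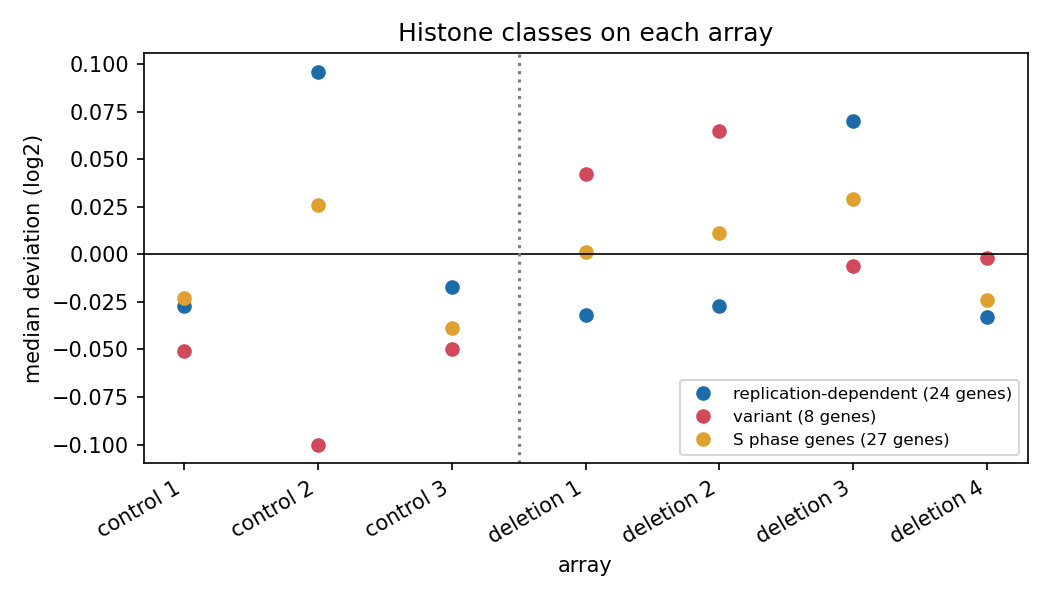
Median deviation from the gene means on each of the 3 control and 4 deletion arrays (vertical axis, log2) for the 24 replication-dependent genes, the 8 variant genes and 27 S phase genes. The replication-dependent medians are highest on control array 2 (0.096) and deletion array 3 (0.070), while the variant medians are all at or below -0.050 in control.

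Of the 24 replication-dependent genes, 8 had their highest value on deletion array 3 and 6 on control array 2, against 12.1% and 19.2% of all genes. Each of these arrays was above the gene's own mean for 18 of the 24, against 49.5% and 48.6% of all genes, and 14 of 24 (58.3%) were above on both, against 24.7% of all genes. These arrays were singled out after their values were seen. Control array 2 also stood apart on the first principal component of all arrays, at 0.84 against -0.37 to 0.07 for the others. The mast cell marker Ms4a2 read 7.55 on it and 9.67 and 9.99 on the other controls, and 8.07 on deletion array 3 and 8.81 to 10.05 on the other deletion arrays. Cpa3 read 9.53 on control array 2 and 11.97 and 11.95 on the other controls, and 10.46 on deletion array 3, within the 9.88 to 11.48 of the other deletion arrays. Tph1 read 9.35 on control array 2 and 10.39 and 9.83 on the other controls. Gzmb (4.57), Mcpt8 (4.56) and Fcer1a (3.11) on control array 2 lay between the other controls. On deletion array 3 the values of Tph1, Gzmb, Mcpt8 and Fcer1a lay within those of the other deletion arrays. The part of these differences in the histone values was not tested. Among the families, the H4 median was highest on deletion array 3 (0.287) and on control array 2 (0.151), and the H2A medians stayed between -0.036 and 0.027 on all 7 arrays. The 16 replication-dependent genes above the median gene mean read 0.043 on control array 2 and 0.025 on deletion array 3, and the 8 below it read 0.161 and 0.222. Of the 8 variant genes, 6 were below their own mean on control array 2 and 1 on deletion array 1. Over the tested probesets the median value was lowest on control array 2 (5.605), and on the other arrays it ran from 5.669 to 5.737. With every array centred on its median, the replication-dependent median difference was -0.015 and the variant one 0.062. Such centring shifts both classes by the same amount, so it cannot change the difference between them, and the part of the array shift in the class medians was not tested.

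The germline and other class held mostly genes known from testis or oocyte, and 2 pseudogenes. Of its 18 members 8 were lower and 10 higher, with a median of 0.012 and a range of -0.24 to 0.24, and none was at an unadjusted p under 0.05 or free of overlap. H1f6, the testis linker histone H1t, read 4.02, 3.78 and 3.85 in control and 4.21, 4.02, 3.97 and 4.08 in deletion arrays, a difference of 0.19 (SE 0.09). H2al1o, an H2A.L gene of the testis, read 5.42, 5.10 and 5.03 in control and 4.98, 5.00, 5.04 and 4.91 in deletion arrays, a difference of -0.20 (SE 0.10). In H1f6 control array 1 alone reached the deletion values, and in H2al1o deletion array 3 alone reached the control values. H2al2a, also of the H2A.L family, read 6.26, 5.97 and 6.31 in control and 6.68, 6.13, 6.51 and 6.35 in deletion arrays, the highest difference of the 50 at 0.24 (SE 0.14). H2af-ps2, a pseudogene, read 5.19, 5.28 and 5.30 in control and 5.04, 5.55, 4.64 and 4.83 in deletion arrays, and H2al1m, another H2A.L gene, read 6.15, 5.60 and 5.99 in control and 6.36, 6.31, 5.98 and 5.87 in deletion arrays. Deletion values lay on both sides of the control values in H2af-ps2, the control values overlapped the deletion values in H2al1m, and the differences were -0.24 (SE 0.19) and 0.22 (SE 0.16). Single arrays moved these values: with 1 array left out, the differences ran from 0.13 to 0.33 for H2al2a, -0.27 to -0.08 for H2al1o, 0.06 to 0.34 for H2al1m, -0.42 to -0.12 for H2af-ps2 and 0.13 to 0.25 for H1f6. The unadjusted p was under 0.05 for H2al2a and H2af-ps2 without deletion array 2, for H2al1o without control array 3, and for H1f6 without control array 1 or deletion array 3. Only 5 of the 18 genes lay above the median gene mean.

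Many histone genes are nearly identical in sequence, and 53 histone symbols of the RefSeq table were present only on probesets assigned to several symbols. These 59 probesets are not members and cannot be given to a gene, so only their families are described. They held 54 distinct sets of values, assigned to 21 sets of genes, so the 54 are not separate observations. Of the 54, 35 were lower and 19 higher in deletion arrays, with a median of -0.021 and a range of -0.92 to 0.27. Of all 41345 probesets 50.2% were lower. In a limma fit over all 41345 probesets none had an adjusted p under 0.05, 4 had an unadjusted p under 0.05 against 4.39% of all probesets, and all 4 were lower, against 2.52% of all probesets. The groups did not overlap for 3 of the 54, against 4.98% of all probesets, and all 3 were lower, against 2.67% of all probesets. The 4 came from 2 sets of genes, 1 of H2B and 1 of H3, with 2 probesets each, so they are not separate observations. Replication-dependent H3, seen only here, had a median of -0.081 over 12 probesets of 2 sets of genes (9 lower and 3 higher). The 7 probesets of the H3.3 variant genes ran from -0.09 to 0.02 (6 lower and 1 higher). Their median was -0.026, against 0.086 for the 8 variant genes with probesets of their own. H4 had a median of -0.117 over 5, H2B of -0.057 over 8 (6 lower and 2 higher) and H2A of 0.003 over 9.

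The lowest value came from a probeset shared by 3 H2B genes, which read 8.28, 8.59 and 8.22 on the control arrays and 7.13, 7.77, 7.79 and 7.08 on the deletion arrays. All deletion values lay below all control values, and the difference was -0.92 (SE 0.21, 95% interval -1.41 to -0.43, limma adjusted p = 0.999). Of all 41345 probesets 46 (0.111%) had a difference of -0.9 or less. Another probeset assigned to the same 3 H2B genes read 9.23, 9.01 and 9.06 in control and 8.52, 8.74, 9.04 and 8.87 in deletion arrays. Its groups overlapped through deletion array 3, and its difference was -0.31 (SE 0.13, 95% interval -0.61 to -0.01). A probeset assigned to these 3 genes and 1 H1 gene read 7.45, 7.42 and 7.30 in control and 7.05, 7.22, 7.33 and 7.31 in deletion arrays, overlapped between groups and differed by -0.16 (SE 0.09). Probesets assigned to 12 symbols, these 3 genes among them, overlapped between groups, with differences of 0.01 (SE 0.07) and -0.10 (SE 0.08).

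A probeset shared by 8 H3 genes read 8.08, 8.09 and 8.08 in control and 7.61, 7.76, 7.84 and 7.75 in deletion arrays, with no overlap and a difference of -0.34 (SE 0.08, 95% interval -0.52 to -0.17). Another probeset of the same 8 H3 genes, also without overlap, read 6.84, 7.02 and 6.87 in control and 6.66, 6.76, 6.59 and 6.63 in deletion arrays, with a difference of -0.25 (SE 0.08, 95% interval -0.43 to -0.06). A further probeset of these 8 genes read 8.84, 8.77 and 8.83 in control and 8.81, 8.84, 8.79 and 8.76 in deletion arrays, a difference of -0.01 (SE 0.06). Every other probeset assigned to these 8 genes also overlapped between groups, with differences of -0.18 to 0.08. Of the 12 replication-dependent H3 probesets, the first 2 given here were the only ones without overlap. Probesets assigned to the same H3 genes thus differed in whether the groups separated. These H2B and H3 probesets were singled out after their values were seen.

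**Figure D4:**
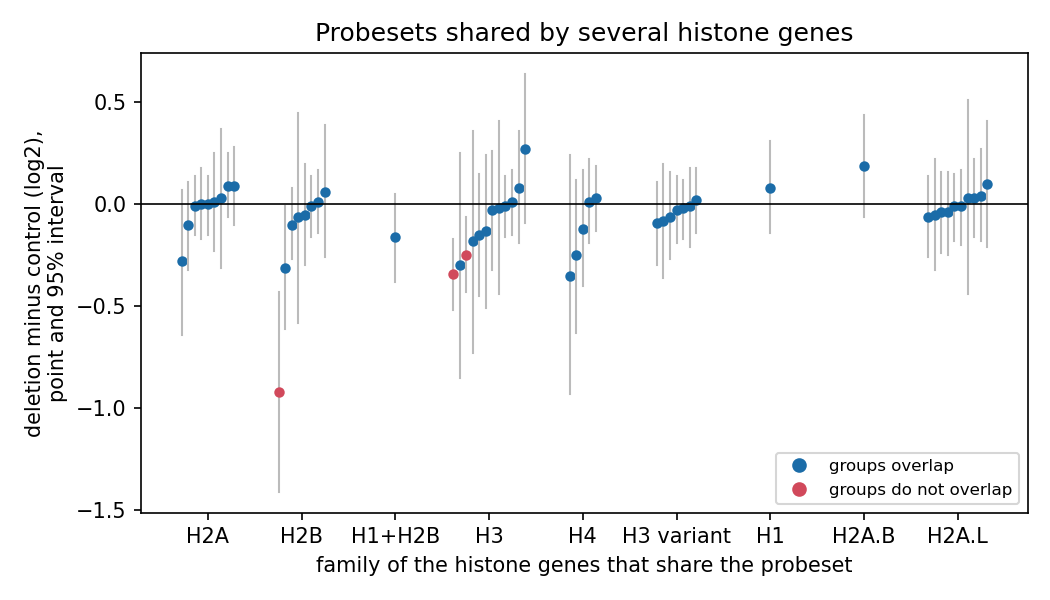
Deletion minus control (vertical axis, log2, point and 95% interval) for the 54 distinct probesets shared by several histone genes, grouped by family on the horizontal axis, with 3 control and 4 deletion arrays. Red points mark the 3 probesets whose groups do not overlap, 1 of H2B and 2 of H3, at -0.92, -0.34 and -0.25.

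Genes that make, carry or accompany histones were counted in the same fit with the same adjusted threshold, and Slbp was in both the transcript factor and the S phase list. Of 24 factors of histone transcripts and histone gene loci 22 were measured, with 9 lower, 13 higher, 0 passing and a median of 0.016. The 3 with the smallest p were Cpsf2, a subunit of the complex that cleaves histone pre-mRNA, at 0.20 (SE 0.09), Lsm11, of the U7 particle that recognises those transcripts, at 0.17 (SE 0.10), and Zc3h8 at 0.15 (SE 0.09). Of 33 histone chaperones and exchange factors 30 were measured, with 13 lower, 17 higher, 0 passing and a range of -0.09 to 0.09. They were led by Srcap, the ATPase that inserts H2A.Z, at -0.09, Cenpa, the centromeric H3, at 0.09, and Asf1b, which carries H3 and H4, at 0.07 (SE 0.06 each). Of 30 S phase genes 27 were measured, with 6 lower, 21 higher, 0 passing and differences of -0.05 to 0.07. Tipin and Pola1, both of the replication fork, were at 0.06, and Cdc6, which loads the replicative helicase, was at 0.07. The S phase medians on the 7 arrays ran from -0.039 to 0.029, a narrower range than the -0.033 to 0.096 of the replication-dependent histone genes. All 27 S phase genes lay above the median gene, and the medians of the 16 replication-dependent genes above it ran from -0.046 to 0.043. The S phase medians were highest on deletion array 3 and control array 2. The medians of the chaperone list were also highest on these arrays, at 0.035 on deletion array 3 and 0.042 on control array 2. The transcript factor list was highest on deletion array 2, at 0.052.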

How the data were processed

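Affymetrix Mouse Gene 2.0 ST arrays measured total RNA of 7 G1E samples. The authors deposited log2 values, and the submitters' processing notes name RMA and, as software, Affymetrix Expression Console. RMA sets the arrays to a common distribution, so a change shared by most genes cannot be seen. Its version was not given in the sources used here. Values ran from 1.87 to 14.01, no pair of arrays was identical, all 7 columns were used, and the number of arrays limits the precision.

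Of 41345 probesets, 23521 carried exactly 1 symbol in the platform annotation and were fitted with limma 3.58.1 in R 4.3.3 (lmFit, eBayes, deletion minus control, two-sided, Benjamini-Hochberg over all of them). Several symbols were given for 1814 probesets, and 16010 were not listed. Counts over genes use 1 probeset for each of 22180 genes. All 50 members matched the RefSeq table of GRCm38.p6 by gene ID. The procedure was tested on simulated data. The members, classes and lists were chosen with earlier results of these data known.

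Array values are given for the 8 variants, for H1f1 to H1f5 where measured, for the 3 smallest p and the 2 widest ranges of each class, and otherwise as stated. Of each list the 3 genes with the smallest p are named, and of each family the lowest and highest. Alternatives were a filter on low values, all probesets, an intensity trend, a robust prior, centred arrays, the mean of a gene's probesets, other class definitions, the mean in place of the median, the replicate block and each array left out.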

Additional observations from a re-analysis of the deposited data

Results flagged for a closer look

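In the deletion group, 2 of 52 sets of 4 array values tested had 1 array far from the other 3, by Dixon's criterion, which chance meets in about 1 of 20. H2ac12 read 3.68 on deletion array 3 and 2.78 to 2.93 on the others, a gap of 0.835 of the whole range and just past the critical value. The median deviation of the replication-dependent histone genes was 0.07 on deletion array 3 and -0.03 on the other deletion arrays, a gap of 0.947 of the range. Groups of 3 were not tested in this way, so control array 2 could not be assessed.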

How the results depend on the processing

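None of the 22 named histone genes passed the adjusted threshold under any of 304 alternative values, where the lowest adjusted p was 0.676, and no replication-dependent or variant gene was counted as passing under any setting. The 2 passing probesets of the table became 0 when all 41345 probesets were tested, 0 with the replicate block, and 0 to 2 with 1 array left out. The 2 histone genes at an unadjusted p under 0.05 became 1 with only probesets over 5 on at least 3 arrays, which left 35 histone genes, and 1 to 6 with 1 array left out. The filter left out H2bc22, which read 4.19 to 4.51 on all arrays, and H2aj kept an unadjusted limma p of 0.0244 under it. The cause of the other changes was not tested. The labels do not say whether the same replicate numbers pair the samples. Deviations of arrays with the same number correlated at 0.025, 0.061 and -0.098, and 1 of 6 arrays correlated best with its own number. Such correlations cannot exclude a pairing with a small effect. The block gave a class difference of -0.060 and 3 histone genes at an unadjusted p under 0.05. H2bc22 (-0.199) and H2aj (0.194) were no longer among them, while Macroh2a2 (0.323) and H2al2a (0.259) were. Differences that changed sign with 1 array left out were those of H1f10 (-0.077 to 0.108), H2az2 (-0.172 to 0.050), Macroh2a1 (-0.035 to 0.003), Macroh2a3 (-0.017 to 0.184), H1f1 (-0.073 to 0.103, and -0.014 with arrays centred on their median), H1f3 (-0.002 to 0.090), H1f5 (-0.048 to 0.085) and H4c1 (-0.346 to 0.010). None of these 8 genes was called, and the other 289 of the 304 values kept their direction. The replication-dependent minus variant median was -0.030 with the filter, -0.056 with all members in 2 classes, -0.053 above the median level and -0.103 as a mean. It was -0.097 with shared probesets added to the replication-dependent class only, an alternative chosen after seeing the data. The shared H3.3 probesets, with a median of -0.026, were not added to the variant class, so this value is not a like comparison of both classes.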
